A study of Mus musculus with 2 samples.

Results

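The genes described here are 7 genes listed together for the primary (azurophil) granules of neutrophils, Elane, Prtn3, Mpo, Ctsg, Prss57, Ms4a3 and Fcnb. Whether each product lies in that granule was not examined. The 7 genes were taken by symbol from the 31053 genes counted. All 7 had 1 entry in each library and at least 50 CPM in 1 or both libraries (CPM are the UMIs of a gene per 1000000 UMIs). The study sorted mouse bone marrow cells that carry E-cadherin on their surface by the stem cell factor receptor cKIT and sequenced 1 single-cell library of E-cadherin+cKIT+ cells and 1 of E-cadherin+cKIT- cells. The labels give the strain as FVB for both and name no treatment or allele, the study's text calls the sorted mice wild-type, and its legend gives them as VaviCre;mTmG, in which Cre expressed in blood cells from the Vav promoter acts on a membrane reporter and the E-cadherin gene is intact. These accounts were not reconciled here. The study names 3 mice as the source of the cells, without saying how they were divided between the libraries, and their age is not given in the sources used here. After the study's own filter on cells, 6479 cKIT+ and 3662 cKIT- cells were kept.

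Primary granules form early in neutrophil development, at the promyelocyte stage, and hold serine proteases and myeloperoxidase that act on engulfed microbes. Their genes are switched on in granulocyte and monocyte progenitors and switched off as secondary granule proteins such as lactoferrin and cathelicidin begin to be made. Elane (neutrophil elastase), Prtn3 (proteinase 3), Ctsg (cathepsin G) and Prss57 (neutrophil serine protease 4) encode serine proteases, Mpo the peroxidase that makes hypochlorous acid, Fcnb the lectin ficolin B, which binds microbial sugars, and Ms4a3 a 4-pass membrane protein of granulocyte and monocyte progenitors. Mcpt8 encodes a serine protease of basophils, and Prg2 the major basic protein of eosinophil granules.

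In mm10 (GRCm38), 3 of the 4 proteases lie on chromosome 10. Prtn3 (chr10:79874476-79883174) and Elane (chr10:79886247-79888215) are on the plus strand with 3072 bases and no protein-coding gene between them. Prss57 (chr10:79781474-79790961) is on the minus strand, 83514 bases before Prtn3. Ctsg (chr14:56099881-56102574, minus strand) is the direct neighbour of the basophil protease gene Mcpt8, at 14607 bases, and lies within 156263 bases of Gzmb (granzyme B) and Cma1 (mast cell chymase). Mpo is at chr11:87793581-87804413 on the plus strand, Ms4a3 at chr19:11629496-11640851 on the minus strand, and Fcnb at chr2:28076378-28084885 on the minus strand. Counts of near-identical copies would be uncertain, but in the last 500 bases of each transcript, which this 3' assay reads, no stretch of 31 bases of 6 members occurred in another gene, and 10 of 470 did for Ms4a3.

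The levels described below divide Elane and Prtn3 from Ctsg and Ms4a3, so the sequence before the start of these 4 genes is shown. The windows come from RefSeq (GRCm38.p6), reach back 250 bases from the start and were cut where a GENCODE exon begins. The RefSeq starts used for Elane and Prtn3 lie inside the gene spans given above, and so does the window of Prtn3. The windows are chr10:79886062-79886246 for Elane and chr10:79879417-79879613 for Prtn3, on the plus strand, and chr14:56102575-56102824 for Ctsg and chr19:11640852-11641101 for Ms4a3, on the minus strand. Each reads 5′ to 3′ along its gene, and capitals mark words searched on both strands for 4 factor families known to act on these genes, GAGGAA for PU.1, TTNNGNAA for C/EBP, TGNGGT for RUNX and AACTG for MYB.
Elane: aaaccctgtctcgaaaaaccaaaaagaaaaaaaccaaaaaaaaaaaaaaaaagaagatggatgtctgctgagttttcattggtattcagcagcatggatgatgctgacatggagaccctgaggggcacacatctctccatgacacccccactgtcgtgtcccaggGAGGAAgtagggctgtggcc
Prtn3: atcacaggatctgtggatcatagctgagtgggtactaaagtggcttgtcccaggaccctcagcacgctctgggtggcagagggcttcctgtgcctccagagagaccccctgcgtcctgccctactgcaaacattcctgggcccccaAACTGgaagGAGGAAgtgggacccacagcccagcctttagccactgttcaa
Ctsg: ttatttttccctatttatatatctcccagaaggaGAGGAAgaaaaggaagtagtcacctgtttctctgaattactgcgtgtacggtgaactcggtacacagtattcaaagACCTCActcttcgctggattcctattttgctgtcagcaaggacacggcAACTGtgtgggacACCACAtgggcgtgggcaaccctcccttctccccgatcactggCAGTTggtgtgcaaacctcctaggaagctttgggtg
Ms4a3: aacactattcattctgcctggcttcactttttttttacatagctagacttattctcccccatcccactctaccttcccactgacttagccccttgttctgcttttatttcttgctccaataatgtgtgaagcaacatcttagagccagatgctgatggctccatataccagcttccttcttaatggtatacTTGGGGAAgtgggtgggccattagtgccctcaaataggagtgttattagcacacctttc

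Windows were given for 6 of the 7 members, all but Prss57. GAGGAA occurred within 250 bases of the start in 4 of these 6 (Elane, Prtn3, Mpo and Ctsg), against 23.3% of all 32851 windows of that length. The C/EBP word occurred in Ms4a3 and Fcnb, 2 of 6, against 36.9% of all windows. The RUNX word was found in Ctsg alone, at 2 places, against 40.1%, and the MYB word in Prtn3, Mpo and Ctsg against 39.1%. Of the capitals, Elane shows a single GAGGAA ending 80 bases before its RefSeq start. Prtn3 shows the same word ending 90 bases before its RefSeq start, with AACTG just ahead of it. The last 65 bases before that start in Elane and 53 in Prtn3 were cut by the exon rule and are not shown. A word found or missing in a window says nothing of binding.

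Each condition had 1 library, so no test of a difference was possible and none is reported. Intervals are 95% intervals for counting error alone. Depth differed, with a median of 13039 UMIs in a cKIT+ cell and 4416.5 in a cKIT- cell, and 10 cell barcodes occurred in both libraries, carrying at most 561 UMIs of any member. The gate and the library cannot be told apart, and a member's share of a library depends on how many cells make it as well as on how much each makes. The gates were checked by their own genes. Kit, which encodes cKIT, was at 37.1 CPM in the cKIT+ library and 0.875 CPM in the cKIT- library, and Cdh1, which encodes E-cadherin, at 62.8 and 193 CPM.

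Both libraries carried all 7 members, but the drop from cKIT+ to cKIT- ranged from 1.20-fold for Ctsg to 263-fold for Elane. Elane was at 2193 CPM (95% interval 2183 to 2203) in the cKIT+ library and 8.35 CPM (7.21 to 9.62) in the cKIT- library, which is 263-fold lower (228 to 304). Prtn3, its neighbour on the chromosome, was at 1393 CPM and 15.3 CPM, a ratio of 91.3 (82.2 to 102). Prss57 was the lowest of the proteases in cKIT+, at 101 CPM, and stood at 10.49 CPM in cKIT-, a ratio of 9.63 (8.47 to 11). These 3 proteases of chromosome 10 were all far lower in the cKIT- library taken as a whole.

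Ctsg behaved otherwise, at 3643 CPM (3630 to 3655) in cKIT+ and 3033 CPM (3010 to 3055) in cKIT-, a ratio of 1.20 (1.19 to 1.21). Ms4a3 was at 1123 CPM and 695 CPM, a ratio of 1.62 (1.59 to 1.64). Mpo lay between, at 3825 CPM and 991 CPM, with a ratio of 3.86 (3.81 to 3.91), just inside the 4-fold limit. Fcnb was the least abundant member in both, at 72.1 CPM and 2.41 CPM, a ratio of 29.98 (23.0 to 39.8). So 4 of 7 members (Elane, Prtn3, Prss57 and Fcnb) were at least 4-fold higher in cKIT+, against 37 genes (1.15%) of the 3224 that reached 50 CPM in a library. No member was higher in cKIT-, where 73 genes passed 4-fold. The size depended on scaling, and as UMIs per cell with no scaling the ratios were 591 for Elane, 8.70 for Mpo, 3.64 for Ms4a3 and 2.71 for Ctsg. Mpo passed 4-fold there and when each cell was thinned to 2000 UMIs (5.15). The share of all genes past 4-fold under these settings is not given here, so no count of members is set against it.

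**Figure D1:**
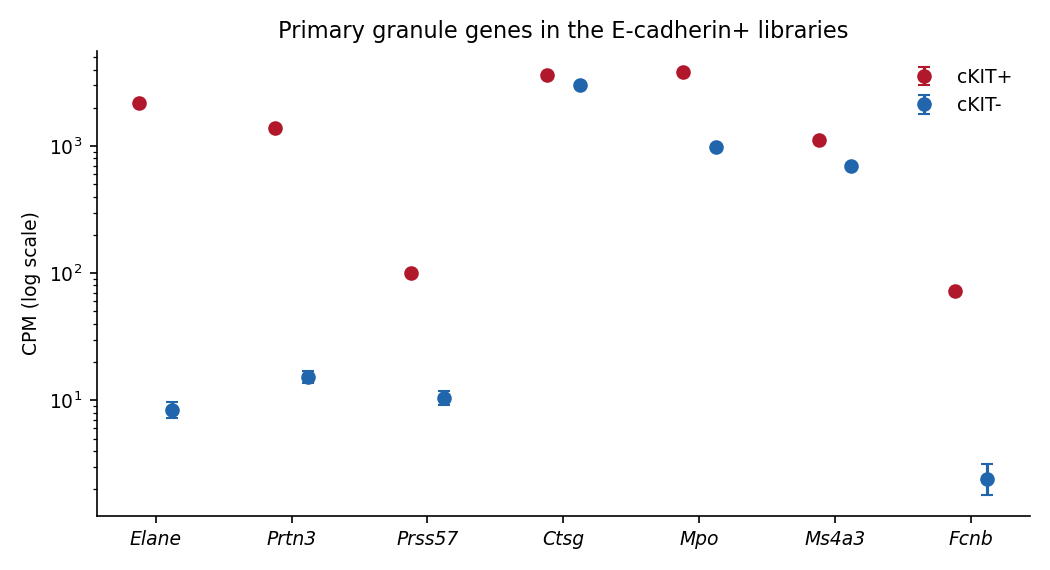
CPM of each member (log axis) in the E-cadherin+cKIT+ and E-cadherin+cKIT- libraries, 1 point per library with its 95% Poisson interval. Elane falls from 2193 to 8.35 CPM while Ctsg goes from 3643 to 3033 CPM.

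The few Elane and Fcnb UMIs of the cKIT- library sat in few cells. Of its 191 Elane UMIs, 100 (52.4%) came from 5 cells, and of its 55 Fcnb UMIs, 49 (89.1%) did. In the cKIT+ library the 5 richest cells held 2.43% of Elane and 6.61% of Fcnb UMIs. Without the 5 cells richest in the gene in each library, an alternative chosen after the data were seen, the ratio was 537 for Elane, 134 for Prtn3 and 256 for Fcnb. For each of these genes those cells held a larger share of the cKIT- UMIs, so leaving them out could only raise the ratio. The residual Prss57 of the cKIT- library was more spread, with 240 UMIs over 205 cells and at most 3 in any cell. By the clusters described below, 94 of the 191 Elane UMIs lay in 47 monocyte-like cKIT- cells and 83 in 3233 basophil-like ones. Of the Fcnb UMIs, 48 lay in 6 neutrophil-like cells and 0 in basophil-like ones. Prtn3 differed, with 118 UMIs in the monocyte-like and 212 in the basophil-like cells.

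Counted by cell, at least 3 UMIs of Mpo were found in 75.5% of cKIT+ and 33.5% of cKIT- cells, and of Ctsg in 74.2% and 48.9%. For Ms4a3 the shares were 70.0% and 36.6%. Elane reached 3 UMIs in 16.9% of cKIT+ cells (16.0 to 17.8) and in 11 of 3662 cKIT- cells (0.3004%), and Prtn3 in 33.1% and 0.492%. Fcnb reached it in 5.37% and 0.0819%, and Prss57 in 13.3% and 0.109%. Depth enters these shares, so the cells were also compared at 2000 UMIs drawn from each, without the 345 cKIT+ and 176 cKIT- cells under that depth. At that depth the shares with at least 3 UMIs were 67.9% and 40.6% for Ctsg, 65.3% and 15.8% for Mpo, and 11.2% and 0.0287% for Elane. For Prss57, 0 of 3486 cKIT- cells remained, which allows a share of up to 0.0861% of cells with that many UMIs. The thinned shares kept cKIT+ above cKIT- for all 7 members.

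The other genes listed for the primary granule did not follow the members. Of 14 such genes, 10 had at least 50 CPM in 1 library, and 0 of them passed 4-fold either way, with a median log2 ratio of -0.34 against -0.06 over all genes tested and 3.27 for the members. The proteoglycan core serglycin (Srgn), which packs granule proteases, was at 2659 CPM in cKIT+ and 2780 CPM in cKIT-. Ctsc, the dipeptidyl peptidase that activates these proteases, was at 59.1 and 89.0 CPM. The elastase inhibitor Serpinb1a was at 470 and 549 CPM. Calreticulin (Calr), a chaperone of the myeloperoxidase precursor, was the highest of the 10 by ratio, at 2786 and 1391 CPM, a ratio of 2.00. Bpi, Lyz1, Cfd and Serpinb1b had under 2 CPM in both libraries.

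Among 9 regulators known to act on these genes, 7 had enough counts and 2 passed 4-fold, both higher in cKIT+. Cebpe, a C/EBP factor of late granulocyte development, was at 149 CPM in cKIT+ and 5.38 CPM in cKIT-, a ratio of 27.8, and Myb, a progenitor factor, at 307 and 71.9 CPM, a ratio of 4.27. Cebpa went the other way, at 223 and 667 CPM, and Cebpb at 165 and 456 CPM. Spi1, which encodes PU.1, was at 201 and 289 CPM and Runx1 at 292 and 481 CPM. Of the 8 secondary granule genes, 3 of the 6 with enough counts passed 4-fold toward cKIT+ (Camp, Ngp and Chil3), with Camp at 3987 and 548 CPM. Ngp was at 2357 and 383 CPM and Chil3 at 765 and 129 CPM.

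The residual level in basophil and eosinophil cells was read in classes of cells that do not use the members. A cell was called positive for Mcpt8 or Prg2 at 3 or more UMIs and 1000 CPM or more of that gene. In the cKIT+ library 3686 cells (56.9%) were positive for Mcpt8 alone, 228 (3.52%) for Prg2 alone, 88 for both and 2477 for neither. The cKIT- library held 2934 Mcpt8-positive cells (80.1%), 728 cells with neither and no Prg2-positive cell. These classes are ranges and not cell types. In cKIT+ 218 Mcpt8-positive cells were under 2000 CPM of Mcpt8 and 368 cells outside the class were between 500 and 1000 CPM.

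In cKIT+ cells positive for Mcpt8 alone, Ctsg reached its highest level of the 4 classes, 4186 CPM (4169 to 4203), against 2893 CPM in cells with neither gene. Mpo was at 3264 CPM in them and 4665 CPM in cells with neither, and Ms4a3 at 1143 and 1083 CPM. Elane was at 308 CPM (303 to 313) against 5401 CPM, Prtn3 at 293 against 3260 CPM, Prss57 at 45.2 against 185 CPM and Fcnb at 15.2 against 170 CPM. Mpo, Ctsg and Ms4a3 thus stood nearer to the level of cells with neither gene than the other 4, which were well below it. The class with neither gene was itself mixed. Of its 2477 cells, 533 (21.5%) were in basophil-like, 403 in granulocyte/monocyte progenitor-like, 390 in neutrophil-like, 223 in eosinophil-like and 499 in unnamed clusters. This division into 3 and 4 members was drawn after the values were seen.

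Most of the Elane in this class came from few cells. Of the 3686 cells, 64 (1.74%) were themselves positive for Elane by the same limits, at 8636 CPM, with Fcnb at 340 CPM and Mcpt8 at 6173 CPM. Their median of 28963 UMIs was above the 14022 of the other 3622 cells, and 39 of the 64 (60.9%) were among the highest Scrublet doublet scores, against 5.49% of the others. In the 3622 cells Elane fell to 42.9 CPM, Prtn3 to 142 CPM and Fcnb to 4.81 CPM, while Ctsg was at 4174 CPM and Mpo at 3161 CPM. The part of doublets in this was not tested beyond those scores.

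These levels were set against cells that should make none of the members. In the cKIT+ library, erythroid-like, B cell-like and macrophage-like cells (76, 68 and 109 cells) held Elane at 18.7 to 44.7 CPM, Prtn3 at 25.7 to 41.0 CPM and Prss57 at 4.66 to 7.83 CPM. Elane in the 3622 cells, at 42.9 CPM, lay inside that range, but those cells were chosen for low Elane. In the basophil-like clusters, where Elane chose no cell, it was at 54.7 CPM (52.9 to 56.7), and in clusters 4 and 7 of them at 82.5 and 86.4 CPM, above the range. Prtn3 at 162 CPM and Prss57 at 37.6 CPM in the basophil-like clusters lay above their ranges. Mpo was at 63.0 to 357 CPM, Ctsg at 119 to 367 CPM and Ms4a3 at 32.6 to 115 CPM in the background types. The levels of these 3 summed over Mcpt8-positive cKIT+ cells were many times higher. Median depth was 3224 to 4946 UMIs in the 3 background types and 14359 UMIs in the basophil-like clusters. The background types also held Mcpt8, at 779 CPM in B cell-like, 1345 CPM in erythroid-like and 1549 CPM in macrophage-like cells. These sums lie around the 1000 CPM limit of a positive cell. Of their cells, 5 erythroid-like, 2 macrophage-like and 1 B cell-like were in the Mcpt8-only class.

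At 2000 UMIs per cell, Elane was seen in 7.71% of basophil-like cKIT+ cells and in 4.76% to 7.69% of the background types. Mpo was seen in 92.3% of the former and 12.7% to 26.2% of the latter. Prtn3 was seen in 21.9% against 4.62% to 9.52%. Read as a mixture of the 7 members' UMIs, the erythroid-like cells held 36.5% Mpo, 41.1% Ctsg, 12.9% Ms4a3 and 3.004% Elane. The basophil-like clusters held 37.0%, 47.1%, 12.9% and 0.660%, and the whole cKIT+ library 30.97%, 29.5%, 9.09% and 17.8%. The mixture in the erythroid-like cells was nearer to the basophil-like one than to that of the library. In the same order, B cell-like cells held 23.7%, 44.7%, 12.3% and 7.02%, from 114 UMIs. Macrophage-like cells held 40.85%, 38.1%, 10.2% and 5.11%. The Elane share of each background type was above that of the basophil-like clusters.

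Summed over the class, Mcpt8-positive cells of the cKIT- library had the same 3 members left. Ctsg was at 3391 CPM (3366 to 3416), Mpo at 1105 CPM and Ms4a3 at 776 CPM, which is 64.0%, 20.8% and 14.6% of the members' UMIs in the class. Elane was at 4.31 CPM, Prtn3 at 11.2 CPM, Prss57 at 11.6 CPM and Fcnb at 0.930 CPM. The sums are not the level of every basophil-like cKIT- cell. In the 1235 cKIT- cells of basophil-like cluster 0, Ctsg was at 175 CPM, Mpo at 42.2 CPM and Ms4a3 at 32.1 CPM. The B cell-like cKIT- cells held 129, 103 and 40.3 CPM in the same order. No cKIT- cell positive for Mcpt8 was positive for Elane. The ratio of cKIT+ to cKIT- within this class was 1.23 for Ctsg (1.22 to 1.25), 1.47 for Ms4a3, 2.95 for Mpo and 3.89 for Prss57 (3.40 to 4.46). It was 71.5 for Elane (58.0 to 89.2) and 26.2 for Prtn3 (23.0 to 30.03). These 2 of the 5 members with at least 50 CPM passed 4-fold, where 24 of 3149 genes did (0.762%). Both sizes were smaller under 3 settings chosen after the data were seen. The 64 Elane-positive cells were chosen for high Elane and all lay in cKIT+, so leaving them out could only lower the Elane ratio. Without them the ratio was 9.95 for Elane (8.04 to 12.5) and 12.7 for Prtn3 (11.2 to 14.6). Without the highest Scrublet scores it was 32.2 for Elane (25.96 to 40.4) and 17.6 for Prtn3. In the cells of the class that lay in basophil-like clusters, 3346 cKIT+ and 2882 cKIT-, it was 12.5 for Elane (10.03 to 15.7), from 51.3 and 4.11 CPM, and 13.8 for Prtn3, while Ctsg stayed at 1.26 and Mpo at 2.91. The background also differed between the libraries. The 229 B cell-like cKIT- cells held no Elane UMI, which allows up to 5.12 CPM, where the cKIT+ background types held 18.7 to 44.7 CPM. The part of background in these ratios was not tested.

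In the 228 cKIT+ cells positive for Prg2 alone, Mpo was at 5179 CPM (5076 to 5284), above its 4665 CPM in cells with neither gene. Ctsg was at 1503 CPM, the lowest of the 4 classes, and Ms4a3 at 1201 CPM. Elane was at 999 CPM (954 to 1045), Prtn3 at 785 CPM, Prss57 at 212 CPM (191 to 234) and Fcnb at 20.1 CPM. The class was not of a single kind, with 175 of its cells (76.8%) in eosinophil-like clusters and 42 (18.4%) in the granulocyte/monocyte progenitor-like cluster, where the members were highest. In the 175 cells Elane was at 657 CPM (610 to 708), Prtn3 at 588 CPM, Prss57 at 199 CPM, Mpo at 4926 CPM, Ctsg at 1133 CPM, Ms4a3 at 1096 CPM and Fcnb at 1.84 CPM. In the 42 cells Elane was at 1551 CPM and Fcnb at 45.2 CPM. All members but Fcnb were above the range of the background types in the 175 cells.

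Set against cells positive for Mcpt8 alone, the Prg2 class was higher in Prss57 by 4.69-fold (4.202 to 5.218), in Elane by 3.24-fold (3.09 to 3.40), in Prtn3 by 2.68-fold and in Mpo by 1.59-fold. Its Ctsg was lower, at a ratio of 0.359 (0.346 to 0.373), and its Ms4a3 was close, at a ratio of 1.05 (1.01 to 1.10). Fcnb, at 1.32 (0.926 to 1.84), was not distinguishable at this depth. Of the 6 members with at least 50 CPM, 1 (Prss57) was at least 4-fold higher in the Prg2 class, where 40 of 3127 genes were (1.28%). All 6 eosinophil granule genes listed passed in that direction, as follows from the choice of the class. The median Prg2-positive cell was shallower, at 4924 UMIs, and 2 of the 228 were among the highest Scrublet scores against 238 of the 3686. The Elane ratio moved from 3.24 to 1.07 when 3 UMIs alone made a cell positive and to 6.05 without the highest Scrublet scores, and the ratios of Ms4a3 and Fcnb changed side under other limits. For the 175 cells in eosinophil-like clusters over the Mcpt8-only cells in basophil-like clusters, chosen after the data were seen, it was 12.8 for Elane (11.8 to 13.9), 4.05 for Prtn3, 5.20 for Prss57, 1.53 for Mpo, 0.264 for Ctsg and 0.955 for Ms4a3 (0.901 to 1.01). Cells positive for both genes lay between for Elane (418 CPM), Ctsg (2656 CPM) and Mpo (4139 CPM).

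**Figure D2:**
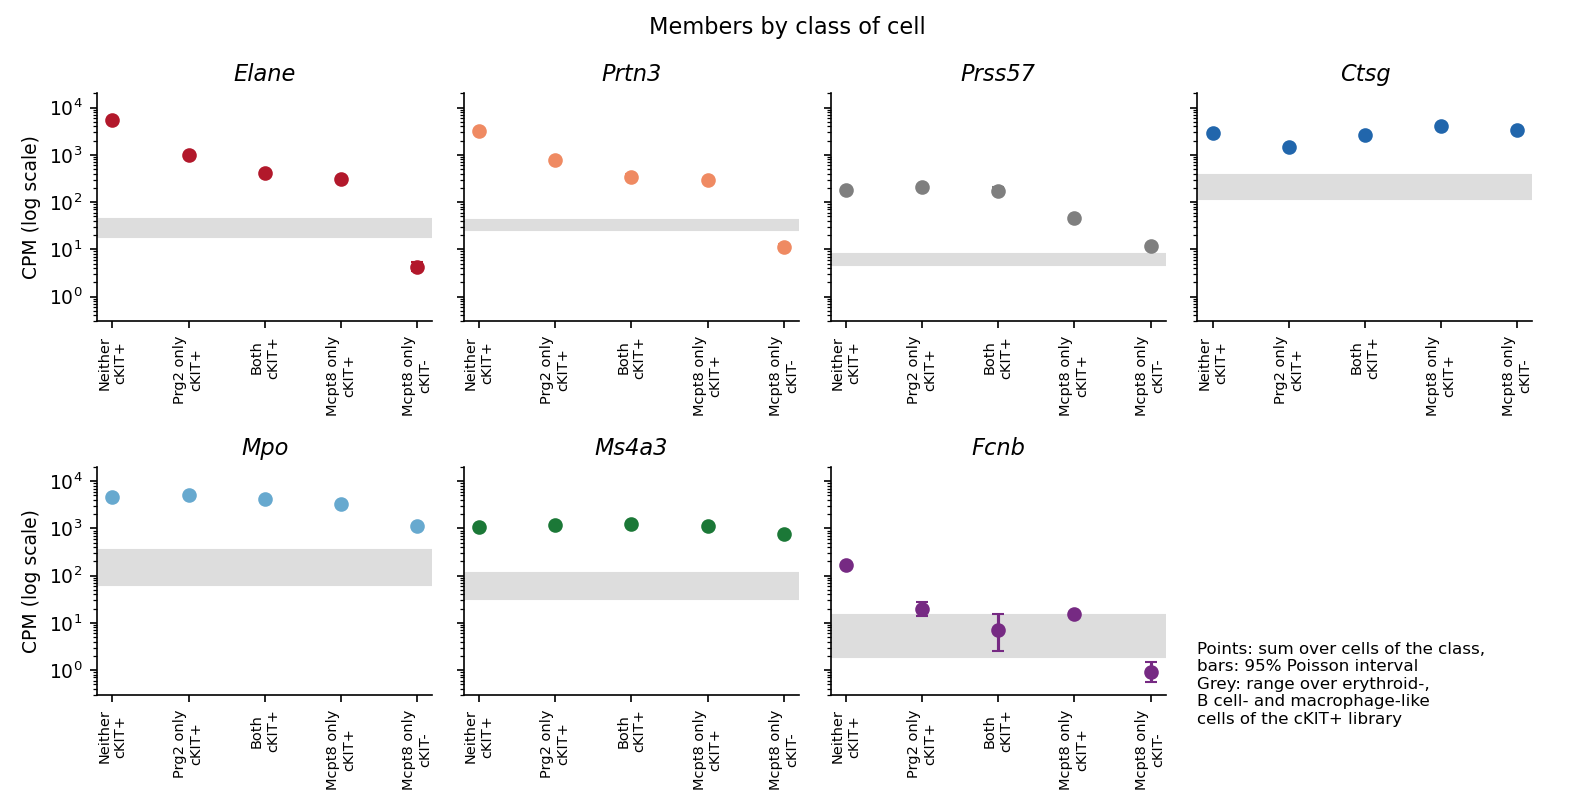
CPM of each member (log axis) in cKIT+ cells positive for neither Mcpt8 nor Prg2, Prg2 alone, both, or Mcpt8 alone, and in cKIT- cells positive for Mcpt8 alone, with 95% Poisson intervals; the grey band spans the erythroid-like, B cell-like and macrophage-like cells of the cKIT+ library. Ctsg, Mpo and Ms4a3 stay above the band in the 5 classes shown, and Elane falls to 4.31 CPM in Mcpt8-positive cKIT- cells.

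At 2000 UMIs per cell, Mpo, Ctsg and Ms4a3 were all seen in the same cell in 75.5% of Mcpt8-only cKIT+ cells, 56.5% of Prg2-only cells and 31.8% of Mcpt8-only cKIT- cells. Elane and Prtn3 were seen together in 4.12%, 29.2% and 0.0349% of them. No member was seen in 1.24% of Mcpt8-only cKIT+ cells and 22.3% of Mcpt8-only cKIT- cells. Mcpt8-only cells thus showed the first 3 genes together far more often than the elastase pair. Taken singly in Mcpt8-only cKIT+ cells, Mpo was seen in 92.95%, Ctsg in 96.9%, Ms4a3 in 79.3%, Elane in 8.875% and Prtn3 in 21.3%. Detection together depends on these single shares, and any excess over them was not tested.

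Graded by the Mcpt8 level of the cell itself, the members moved apart. The 732 cKIT+ cells with no Mcpt8 UMI, with a median of 6507.5 UMIs, held Elane at 3237 CPM, Prtn3 at 1881 CPM, Mpo at 2640 CPM, Ctsg at 1366 CPM, Ms4a3 at 647 CPM, Prss57 at 116 CPM and Fcnb at 202 CPM, so all but Fcnb were higher in the next bin. From cells with up to 1000 CPM of Mcpt8 to cells with 20000 CPM or more, Elane went from 5553 through 942 and 346 to 29.4 CPM in the cKIT+ library. Prtn3 went from 3377 to 68.1 CPM, Prss57 from 200.1 to 39.6 CPM and Fcnb from 155 to 0.474 CPM. Mpo went from 5093 to 2840 CPM, close to the level of cells with none, Ms4a3 from 1175 to 1249 CPM, and Ctsg rose from 3104 to 4817 CPM. Those bins held 1894, 715, 1549 and 1589 cells with median depths of 11652 to 14316 UMIs. In the cKIT- library, Ctsg was at 178 CPM in cells with 1000 to 5000 CPM of Mcpt8 and at 4286 CPM in cells with 20000 CPM or more, and Mpo at 57.7 and 1371 CPM. Median depth differed there, at 3046 and 9306 UMIs, and its part was not tested.

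Graded by Prg2, Prss57 was higher in the richer cKIT+ bins, from 93.9 CPM in cells with none to 211 CPM in the 176 cells with 10000 CPM or more. Mpo changed little, from 3708 to 4562 CPM. Elane was at 2181.7 CPM in cells without Prg2, 2741 CPM in cells with up to 1000 CPM and 434 CPM in the richest bin, and Ctsg at 3682, 3838 and 1463 CPM. The Elane of Prg2-positive cells was thus lowest where Prg2 was highest.

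Graded by the sum of the secondary granule genes, Elane, Prtn3 and Prss57 peaked in 107 cKIT+ cells with 1000 to 10000 CPM, at 13715, 8062 and 329 CPM. Mpo and Ms4a3 peaked in the same bin, at 6427 and 1901 CPM. Ctsg was at 3946 CPM there and highest in cells with up to 1000 CPM, at 4169 CPM. In the 361 cells with 50000 CPM or more Elane, Prtn3 and Prss57 were at 1661, 679 and 64.5 CPM. Mpo was at 820 CPM in them, Ms4a3 at 463 CPM and Ctsg at 510 CPM. Fcnb was at 759 CPM in the 107 cells and 879 CPM in the 361 cells, where it alone of the 7 was not lower. The 107 cells were shallow, with a median of 1930 UMIs against 12709 UMIs in the last bin. Deeper cells weigh more in these sums, so the levels of the bin need not be those of its median cell.

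**Figure D3:**
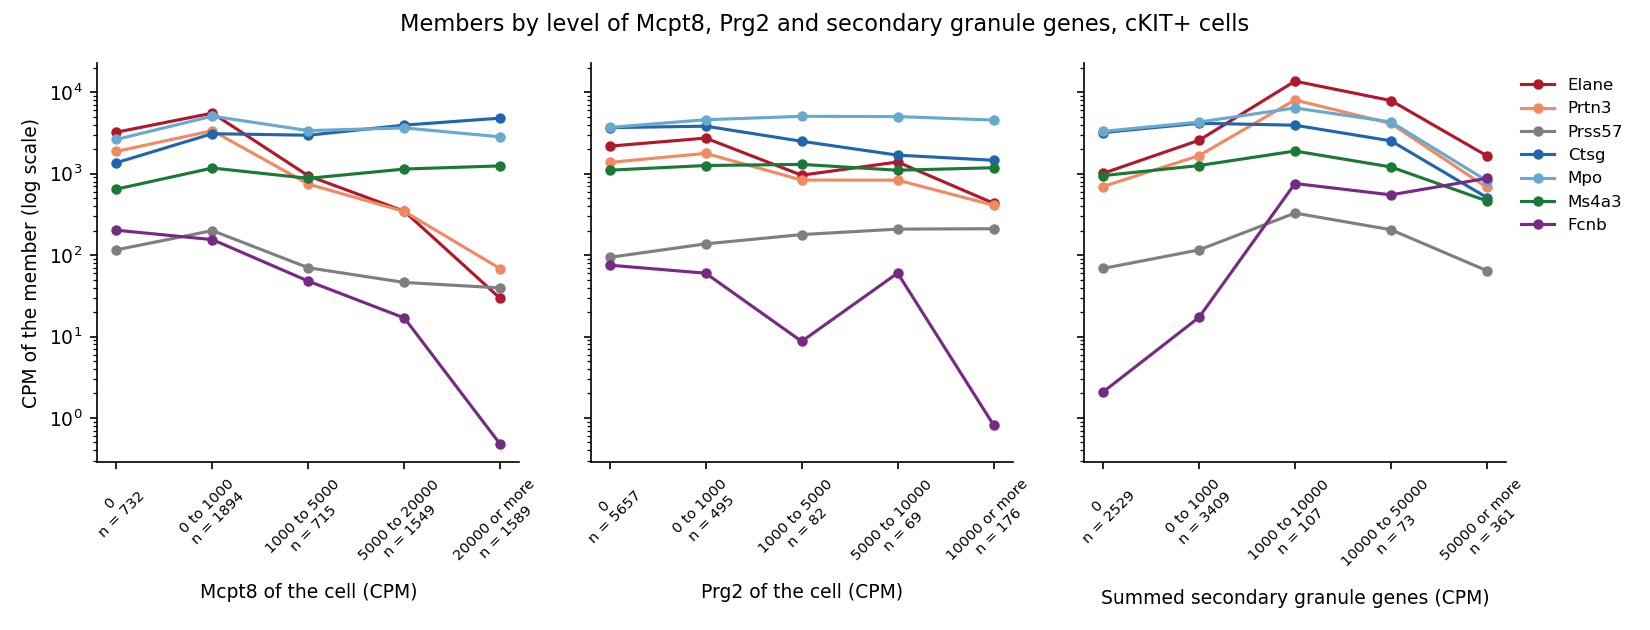
CPM of each member (log axis) in cKIT+ cells binned by their own Mcpt8, Prg2 or summed secondary granule gene level; n is the number of cells in a bin. Elane is at 3237 CPM in cells with no Mcpt8 and goes from 5553 to 29.4 CPM over the bins above, while Ctsg goes from 1366 through 3104 to 4817 CPM.

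Clusters were made with the members left out of the variable genes, which gave 24, of which 22 held at least 50 cKIT+ cells. The 7 members had all been among the 2000 variable genes, and genes that vary with them stayed in. Cluster 9 (482 cKIT+ cells, no cKIT- cell), granulocyte/monocyte progenitor-like from Gfi1 and Gstm1 among its leading genes, held the highest level of 6 members. Elane was at 12169 CPM (12108 to 12231), Mpo at 9088 CPM, Prtn3 at 7327 CPM, Ctsg at 5838 CPM, Ms4a3 at 2139 CPM and Prss57 at 407 CPM. Its Cdh1 was at 5.27 CPM, where basophil-like clusters of 50 or more cells ranged from 45.4 to 369 CPM, and its Kit at 55.4 CPM. The cells richest in the members thus carried little of the transcript of the sorted surface protein, but so did clusters poor in the members. Cdh1 was at 0.995 CPM in neutrophil-like cluster 16, 5.59 CPM in erythroid-like cluster 23 and 7.45 CPM in macrophage-like cluster 22. Outside the basophil-like clusters it was higher in cluster 12 (44.1 CPM), cluster 14 (190 CPM) and cluster 18 (62.8 CPM).

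Cluster 13 (351 cells), eosinophil-like with Prg2, Prg3, Epx and Ear6 leading, came second for Elane (5675 CPM) and Mpo (7728 CPM), with Prtn3 at 3216 CPM, Prss57 at 252 CPM and Fcnb at 7.92 CPM. It also had 10 granulocyte/monocyte progenitor markers on, with Cebpe among its leading genes, so it met the rule for that name too. The cluster held 29384 Elane UMIs, where all 316 Prg2-positive cKIT+ cells held 2196. Most of its Elane was thus in cells not positive for Prg2. Cluster 18 (151 cells), also eosinophil-like and richer in Prg2 (19894 against 4536 CPM), held Elane at 757 CPM, Prtn3 at 804 CPM, Mpo at 2873 CPM and Ctsg at 713 CPM, with Prss57 at 254 CPM. The median cell of cluster 18 held 1750 UMIs. Monocyte-like cluster 20 (88 cells) held Prtn3 at 3511 CPM, Elane at 3404 CPM and Mpo at 3528 CPM, but Ms4a3 at 382 CPM and Prss57 at 41.0 CPM. Clusters 13, 18 and 20 held the proteases in different proportions.

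The 2 neutrophil-like clusters differed from each other. Cluster 15 (271 cells), with Camp at 60347 CPM, held Elane at 2188 CPM, Prtn3 at 908 CPM, Mpo at 1250 CPM and the highest Fcnb of all, 931 CPM. Cluster 16 (179 cells), with Camp at 65616 CPM and the late neutrophil genes Retnlg and Mmp8 leading, held Fcnb at 173 CPM, while Elane was at 22.9 CPM, Mpo at 40.8 CPM, Ctsg at 41.8 CPM and Ms4a3 at 48.8 CPM. Fcnb was the only member still above the background types in cluster 16 apart from Prss57 (11.9 CPM, from 12 UMIs). Cluster 15 also held Mcpt8 at 2557 CPM.

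The 10 basophil-like clusters with at least 50 cKIT+ cells held Ctsg at 212 to 5220 CPM, Mpo at 120 to 3499 CPM and Ms4a3 at 32.6 to 1299 CPM, with medians of 3821, 3138 and 1045 CPM. The low end of all 3 was cluster 0 (72 cKIT+ and 1235 cKIT- cells), where Mcpt8 was at 2617 CPM. Elane ranged from 24.0 to 86.4 CPM, Prss57 from 0 to 44.7 CPM and Fcnb from 0 to 2.66 CPM. Prtn3 ranged more widely, from 27.2 CPM to 309.8 CPM, with its highest level in cluster 11 (445 cells), which had the second-lowest Mcpt8 of the 10 (4714 CPM). Levels of neighbouring clusters often overlapped in their counting intervals, as for Mpo in clusters 10 and 5 (3359 and 3351 CPM) and in clusters 7 and 11. Leading genes of clusters 0 and 3 include Il7r. Of the basophil-like clusters, only cluster 8 had a basophil marker (Prss34) among its leading genes. Basophil-like cells are compared between libraries by cluster number.

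Within clusters the difference between the libraries did not run one way. Of the 8 basophil-like clusters with at least 40 cells of each library, Ctsg was higher in cKIT+ in 2 (clusters 2 and 4) and higher in cKIT- in 5 (clusters 1, 6, 7, 8 and 10), with intervals of the ratio that leave out 1. In cluster 2 (263 cKIT+ and 440 cKIT- cells) Ctsg was at 5220 and 4065 CPM, and in cluster 4 (300 cells of each) at 4282 and 4006 CPM. In cluster 8 (81 and 451 cells) it was at 3818 and 4534 CPM.

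The other 4 held 42 to 61 cKIT- cells. There Ctsg was at 3701 CPM in cKIT+ and 5935 CPM in cKIT- in cluster 1, at 4568 and 5632 CPM in cluster 6, at 4046 and 6512 CPM in cluster 7, and at 3824 and 5086 CPM in cluster 10. The cKIT+ excess of Ctsg in the whole libraries was thus turned round in these 5 clusters, but their cells were not matched in Mcpt8. It was at 13259 CPM in cKIT+ and 30017 CPM in cKIT- in cluster 1, and at 23362 and 30866 CPM in cluster 6. In cluster 7 it was at 11294 and 31710 CPM, and in cluster 10 at 18763 and 30856 CPM. In cluster 8 the levels were closer, at 34412 and 37848 CPM. Mcpt8 was also higher in cKIT- in the clusters where Ctsg was higher in cKIT+. The part of Mcpt8 in the Ctsg differences was not tested.

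Mpo was higher in cKIT+ in 4 of the 8 (clusters 0, 2, 4 and 6) and higher in cKIT- in cluster 1, at 3217 and 4127 CPM. The interval of its ratio held 1 in clusters 7, 8 and 10, as with 1511 and 1476 CPM in cluster 8. In cluster 2 Mpo was at 2205 and 774 CPM and in cluster 4 at 1931 and 1151 CPM. Elane was higher in cKIT+ in 7 of the 8, such as at 24.0 and 3.58 CPM in cluster 2 and 82.5 and 6.45 CPM in cluster 4, and cluster 0 held no cKIT- UMI of it. In clusters 2, 6, 8 and 10 its cKIT+ level, 24.0 to 42.7 CPM, lay within the 18.7 to 44.7 CPM of cKIT+ background types. The 229 B cell-like cKIT- cells held no Elane UMI, so the background differed between the libraries. Among basophil-like clusters with at least 50 cKIT- cells, Mpo in that library ran from 42.2 CPM in cluster 0 to 3330 CPM in cluster 10 (61 cells). Of the 8 shared clusters, Prss57 was higher in cKIT+ in 2, the interval of its ratio held 1 in 5, and 1 gave no ratio. Ms4a3 was higher in cKIT+ in 2 and in cKIT- in 3, and its interval held 1 in 3. Prtn3 was higher in cKIT+ in all 8, and Fcnb gave no ratio.

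Mast cell genes marked cluster 12 (443 cKIT+ cells, Gzmb and Cma1 leading), left unnamed because 5 of 10 basophil markers were on beside 5 mast cell markers. It held Mpo at 181 CPM, Ctsg at 256 CPM, Ms4a3 at 66.5 CPM and Elane at 21.9 CPM, within the range of the background types. Ctsg, whose genomic neighbours include Gzmb and Cma1, was thus low where those 2 were high, at 1676 and 317 CPM. Cluster 14 (268 cells), also unnamed, held Mpo at 1950 CPM and Ctsg at 1187 CPM. It had 8 basophil markers on, and its leading genes included the eosinophil genes Ear1 and Ear2 and the mitochondrial genes mt-Nd2, mt-Nd3 and mt-Nd6. Its cKIT+ cells were shallow, at a median of 1982.5 UMIs, and held Prg2 at 190 CPM. The quality of these cells was not tested.

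**Figure D4:**
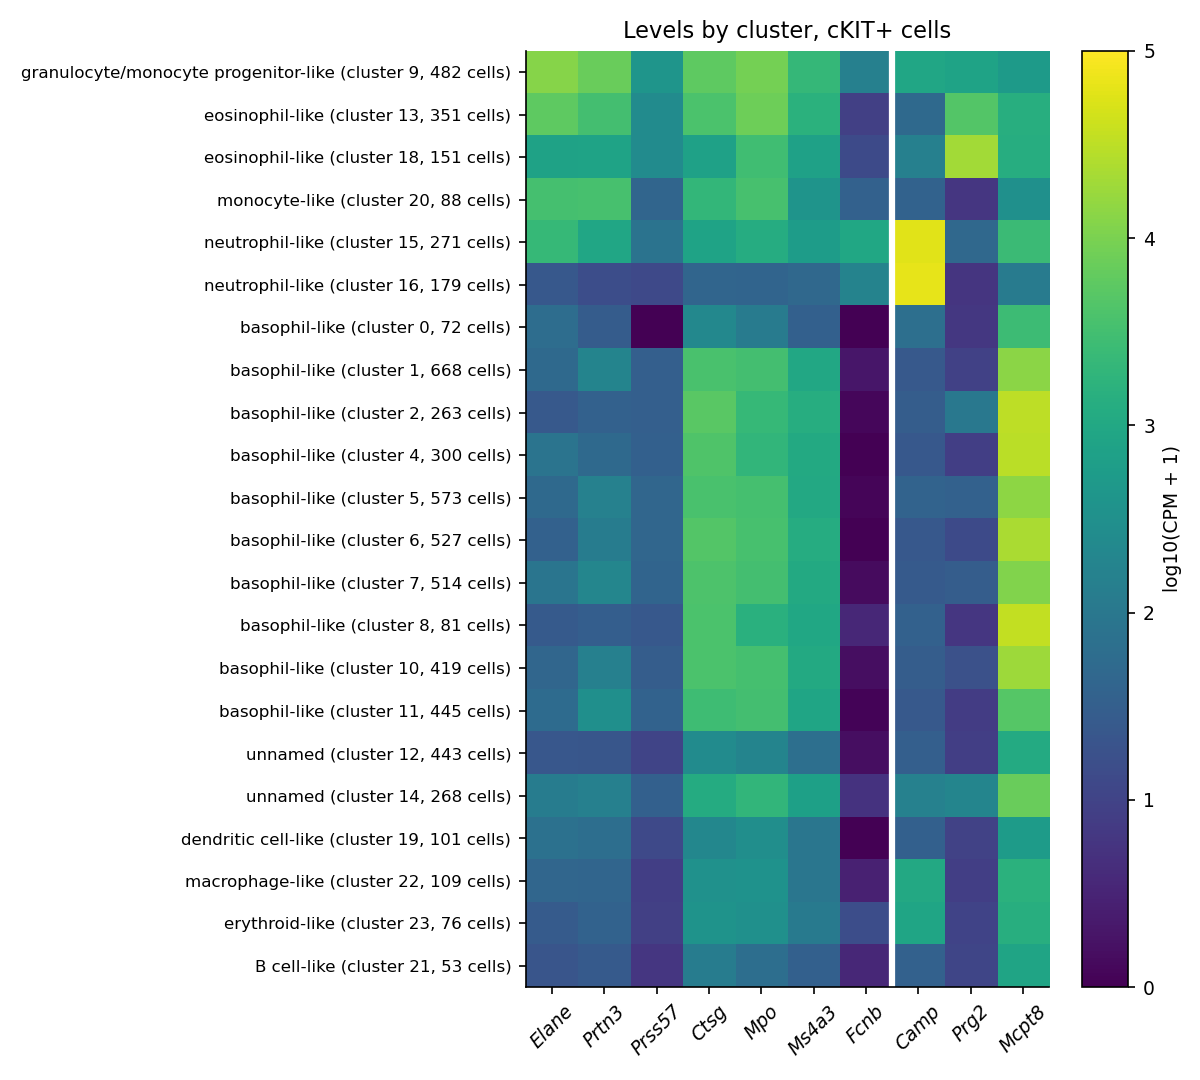
log10(CPM + 1) of the 7 members, and of Camp, Prg2 and Mcpt8 for reference, in the 22 clusters with at least 50 cKIT+ cells; rows give cluster and number of cells. Elane is highest in cluster 9 (12169 CPM), Fcnb in cluster 15 (931 CPM), and Ctsg, Mpo and Ms4a3 span most basophil-like rows.

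Over the 22 clusters, which share 1 library, Pearson's r of log2(CPM + 1) was 0.93 between Elane and Prtn3, 0.95 between Mpo and Ms4a3, 0.94 between Ctsg and Ms4a3 and 0.93 between Mpo and Ctsg. It was 0.30 between Elane and Ctsg and -0.22 between Ctsg and Fcnb. Prss57 lay between, at 0.71 with Elane and 0.80 with Mpo. Against the class genes, Ctsg had an r of 0.69 with Mcpt8 and Elane one of -0.36, and Fcnb had 0.84 with Camp. Of the regulators, Cebpe had an r of 0.75 with Fcnb, 0.70 with Elane and -0.21 with Ctsg, and Cebpa 0.64 with Ctsg and -0.14 with Elane. These are descriptions over clusters of unequal size, with no test.

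The regulators themselves differed between those clusters. Cebpe was at 423 CPM in cluster 9, 670 CPM in cluster 13 and 728 CPM in cluster 15, and at 17.8 CPM in cluster 11. Gfi1, a repressor needed for neutrophil development, was at 96.6 CPM in cluster 9. Cebpa was at 79.8 CPM in cluster 9 and 391 CPM in basophil-like cluster 2, the reverse order. Irf8, a monocyte factor, was at 1030 CPM in cluster 20.

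Among 5944 genes compared, the 5 whose pattern was most like the mean of the members were Alas1 (r = 0.88), Mcee (0.85), Dmkn (0.82), Pxylp1 (0.82) and Ncln (0.80). Alas1, the first enzyme of haem synthesis, reached 683 CPM and Mcee, an epimerase of propionate breakdown, 137 CPM, both in cluster 9. Dmkn was highest in cluster 20, at 71.5 CPM. Only 3 of these 5 stayed among the closest 5 with a pseudocount of 10 CPM.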

How the data were processed

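The deposited files hold the authors' UMI counts, with no scaling, for 1 library of E-cadherin+cKIT+ and 1 of E-cadherin+cKIT- cells, made with Cell Ranger 3.0.2 against mm10. The 10x kit is version 2 in the labels and version 3 in the study's methods, and sequencing reads are 3' ends, so levels are per UMI and were not divided by length. The study's filter was applied (genes in at least 40 cells, no cell in the top or bottom 1% by genes or the top 1% by UMIs), which kept 10141 of 10377 cells. The cKIT+ library held 91108781 UMIs in kept cells and the cKIT- library 22869169. CPM is a gene's UMIs per 1000000 UMIs of the kept cells in question.

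Sums carry exact Poisson, ratios exact binomial and shares exact Clopper-Pearson intervals at 95%, and a count of 0 allows 3 counts. Genes past 4-fold were counted among those with at least 50 CPM in 1 of the groups compared. Counting and intervals were tested on simulated data. Clusters used Seurat 5.3.0 in R 4.3.3 (2000 variable genes less the 7 members, 15 principal components, resolution 1). A cluster was named from fixed markers: 1 or more among its 10 leading genes and at least 3 on (20 CPM and 10% of the highest cluster), with fewer than 5 of the 10 basophil markers on for any other class, or at least 5 of 10 basophil markers on with no other class that had 3 markers on among its leading genes. This rule for names was set after the clusters were seen. Doublets were kept. Scrublet in Scanpy 1.11.5 called 288 cKIT+ and 10 cKIT- cells, and an alternative left out the highest scores at 0.8% of cells per 1000 cells. edgeR 4.0.16 gave TMM factors alone. Of 31053 gene identifiers, 30934 were in GENCODE M21 (GRCm38), which gave positions.

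Genes named are the 7 members, fixed lists (other primary granule genes, regulators, secondary granule, eosinophil granule, basophil and sort genes), cluster markers and leading genes, and the 5 genes closest in pattern. The members and lists were chosen with earlier results of these data known. There were 0 unused columns of values per sample.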

Additional observations from a re-analysis of the deposited data

How the results depend on the processing

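No paired analysis was possible because each sort gave a single library, and for the same reason no replicate could be left out. Of 343 values computed under alternatives, 117 moved by less than their counting interval (or 1.5-fold for a count), 219 moved further in the same direction and 7 changed direction, the cause of which was not tested. All 7 members kept cKIT+ above cKIT- under the 8 alternatives for the library ratio. With no filter on cells the ratio was 208 for Elane, 71.5 for Prtn3, 3.64 for Mpo, 1.17 for Ctsg and 1.56 for Ms4a3. With every cell weighted alike it was 321, 102, 5.26, 1.62 and 2.17, with 13.3 for Prss57 and 47.9 for Fcnb. As UMIs per cell it was 591, 205.5, 8.70, 2.71 and 3.64, with 21.7 for Prss57 and 67.5 for Fcnb. At 2000 UMIs per cell it was 119 for Prtn3, 5.15 for Mpo, 1.61 for Ctsg, 2.07 for Ms4a3, 12.9 for Prss57 and 51.8 for Fcnb. Without the 10 most abundant genes it was 3.59 for Mpo, 1.12 for Ctsg and 1.505 for Ms4a3, and with TMM factors 3.96, 1.23 and 1.66. Without the 5 richest cells of each library, chosen after the data were seen, it was 537 for Elane, 134 for Prtn3, 3.92 for Mpo and 256 for Fcnb. Those cells held a larger share of the cKIT- UMIs of each of these genes, so the ratio could only rise.

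Genes at least 4-fold higher numbered 902 in cKIT+ and 465 in cKIT- among those with at least 10 UMIs, and 10 and 20 among those with at least 200 CPM in 1 library, where the main counts were 37 and 73. For the ratio of cells positive for Prg2 alone over Mcpt8 alone, 3 UMIs alone as the limit gave 1.07 for Elane, 1.13 for Prtn3, 1.40 for Mpo, 0.297 for Ctsg, 2.91 for Prss57, and the reverse direction for Ms4a3 (0.910) and Fcnb (0.353). A limit of 5000 CPM gave 3.97 for Elane, 1.46 for Mpo, 0.325 for Ctsg, 2.35 for Fcnb and the reverse for Ms4a3 (0.954). Thinning to 2000 UMIs gave 3.72 for Elane, 1.46 for Mpo, 0.253 for Ctsg, 6.04 for Prss57 and the reverse for Ms4a3 (0.849) and Fcnb (0.527). Without the highest Scrublet scores it was 6.05 for Elane, 3.59 for Prtn3 and the reverse for Fcnb (0.556), and with no filter on cells 2.40 for Elane and 2.21 for Prtn3. In eosinophil-like and basophil-like clusters alone, chosen after the data were seen, it was 12.8 for Elane, 4.05 for Prtn3, 1.53 for Mpo, 0.264 for Ctsg, 4.93 for Fcnb (from 2 UMIs) and the reverse for Ms4a3 (0.955). Elane in cKIT+ cells positive for Mcpt8 alone ranged from 51.3 CPM, in basophil-like clusters alone, to 1407 CPM over these settings. Of the 5 genes most like the members, 3 stayed with a pseudocount of 10 CPM and 1 among genes with at least 200 CPM in 1 cluster. Fcnb, Elane and Prss57 in cKIT- rest on 55 to 240 UMIs, which limits their ratios.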
